A study of Homo sapiens with 6 samples.

Results

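The genes of the ATF4 and unfolded protein response were examined in differentiating neuroblastoma cells depleted of the long noncoding RNA CyCoNP, which is found in neural progenitors. The members were 38 genes picked by symbol, and all 38 were found among the 60676 genes listed. They formed 2 arms, with 22 genes of the amino acid response and 16 genes of protein folding in the endoplasmic reticulum (ER). The first arm holds ATF4 itself and genes whose transcription it can drive. All cells were SK-N-BE, a human neuroblastoma line that takes on neuronal traits with retinoic acid. All received siRNAs and were then kept for 1.5 days in differentiation medium with 10 μM retinoic acid. The 3 si-SCR libraries came from cells given a scrambled siRNA, and the 3 si-CyCoNP libraries from cells given a pool of siRNAs directed at the second exon of CyCoNP. One cell line and one siRNA pool were used, and nothing in the labels says that the 3 libraries of a group came from separate cultures, so that p-values measure the spread between these libraries.

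In the integrated stress response, kinases that sense different stresses phosphorylate the translation factor eIF2, which slows protein synthesis in general and favours translation of the ATF4 mRNA. One of these kinases, PERK, senses unfolded protein in the ER, and another, GCN2, senses a shortage of amino acids. ATF4 then switches on genes of amino acid import, amino acid synthesis and stress signalling. The ER has further sensors, IRE1 and ATF6, which act through the transcription factor XBP1 and through a fragment of ATF6 itself, and which raise chaperones, folding enzymes and factors that dispose of misfolded protein. The mRNA levels measured here do not report on phosphorylation or translation. As the libraries are of bulk RNA, fewer cells of a kind and less RNA per cell cannot be told apart.

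The libraries held between 3762009 and 4799407 counted fragments in the deposited counts. The paper reports far more sequenced reads per sample on average, and the reason for the difference was not tested. LINC02381, the gene of CyCoNP, lies on chromosome 12 from 54126019 to 54147485 (GRCh38, plus strand), and fell from 14.4 ± 1.31 to 1.10 ± 0.498 FPKM (fragments scaled by gene length and library total, mean ± SD, n = 3). Its log2 fold change (si-CyCoNP over si-SCR, as for all fold changes given here) was -3.78 with a standard error (SE) of 0.190 (edgeR quasi-likelihood test, adjusted p = 6.84e-14). All 8 markers of sympathetic neuroblasts, the cells neuroblastoma resembles, were detected, with a summed level of 1731 to 1741 FPKM in si-SCR and 1716 to 1827 FPKM in si-CyCoNP. Of these 8, 5 fell and 2 rose, which is 87.5% against 28.4% of all genes tested, so the level sum does not show unchanged markers. Their median log2 fold change was -0.37 (lowest -1.06, highest 0.84). Of 11 markers of other cell types, PECAM1, KRT5 and ALB were at 0 in every library and 8 had no more than 3 counts in any. The summed level of these 11 was 13.1 to 16.9 FPKM in si-SCR and 16.9 to 24.4 FPKM in si-CyCoNP, carried mostly by PDGFRB and CD14. CD14 rose (log2 fold change 1.21, SE 0.350, adjusted p = 0.0100), and PDGFRB was at 0.29 (adjusted p = 0.0623). The part of either list in the results was not tested.

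Neither arm changed in a single direction. Of the 36 members that could be tested, 11 passed an adjusted p of 0.05, which is 30.6% of them, against 28.4% of all 13966 genes tested. In the amino acid response SLC7A11, TRIB3, PSAT1 and SLC7A1 rose and GDF15, CHAC1 and ATF3 fell, out of 20 tested. Among the 16 ER folding genes SDF2L1, DNAJC3 and CALR rose and EDEM1 fell. Of all genes tested, 14.2% rose and 14.2% fell. A change beyond 1 on the log2 scale was added by the study as a condition, and under it SLC7A11 was higher (2.28% of all genes) and GDF15, CHAC1 and EDEM1 were lower (2.98% of all genes). GDF15 had few counts and reached the expression filter through its si-SCR level alone, which favours a fall. The median log2 fold change was 0.05 in the amino acid response and 0.14 in ER folding, beside 0.00534 over all genes. The groups did not overlap, as library-normalised values, for 9 of the 20 amino acid response genes and for 2 of the 16 ER folding genes, HYOU1 and EDEM1, against 40.2% of all genes.

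**Figure D1:**
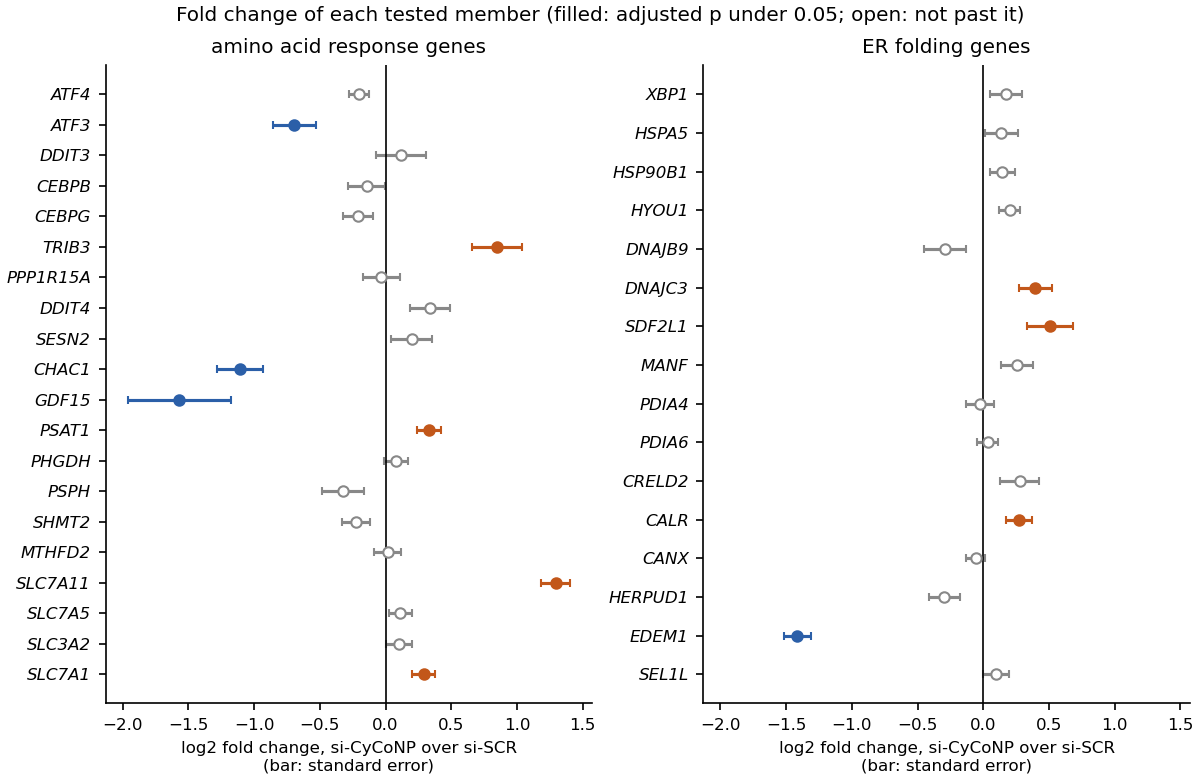
Log2 fold change of si-CyCoNP over si-SCR for the 20 tested amino acid response genes (left) and the 16 ER folding genes (right), in the order of their roles. Points are edgeR estimates and bars their standard errors, and filled points passed an adjusted p of 0.05. SLC7A11, GDF15, CHAC1 and EDEM1 lie beyond 1 or -1, and most other members lie within 0.5 of 0.

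Many genes of the amino acid response carry a C/EBP-ATF response element, the composite site that ATF4 binds with a C/EBP partner. The letters TGATGNAA were searched on both strands from 250 bases before to 50 bases after each transcript start in RefSeq promoters (GRCh38.p14). These held 34 of the 38 members (all but SLC7A11, PSPH, SHMT2 and NUPR1), some with several starts. A RefSeq transcript start can differ from the gene start in the locations given for the members. The letters were found in 6 of 18 amino acid response genes, in 1 of 16 ER folding genes (HERPUD1) and in 4.457% of 27305 genes. A match describes letters in this window and not a bound site. Windows of 30 bases are shown for 5 of the amino acid response genes, so that the site can be read beside their values. They are written along the strand of the gene, with the match in capitals, which reads as its reverse complement in CHAC1.
ASNS, 7:97872458-97872487, minus strand: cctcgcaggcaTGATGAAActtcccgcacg
ATF3, 1:212565205-212565234, plus strand: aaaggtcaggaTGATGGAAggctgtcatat
CEBPG, 19:33374060-33374089, plus strand: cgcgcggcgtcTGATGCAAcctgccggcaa
CHAC1, 15:40953251-40953280, plus strand: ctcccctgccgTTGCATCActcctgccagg
SLC7A1, 13:29595663-29595692, minus strand: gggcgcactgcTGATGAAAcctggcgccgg
The SLC7A1 match begins at base 8 from the transcript start of its promoter, and those of the other 4 genes lie before the transcript start of theirs. For ASNS, ATF3, CEBPG and CHAC1 that start lies inside the gene as annotated. Of the 4 tested genes among these 5, SLC7A1 rose, ATF3 and CHAC1 fell, and CEBPG did not pass. The sixth amino acid response gene with the letters, SLC3A2, did not pass either. Genes with the same letters thus moved in different directions.

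ATF4 itself (chromosome 22, 39519695 to 39522683, plus strand) was among the more abundant members. It measured 149.76, 168.22 and 168.49 FPKM in the si-SCR libraries and 145.95, 149.95 and 147.84 FPKM in the si-CyCoNP libraries. In FPKM the highest si-CyCoNP library lay just above the lowest si-SCR library, and after normalisation for library composition the groups did not overlap. The log2 fold change was -0.20 (SE 0.0769, adjusted p = 0.0534), so that ATF4 did not pass. Its estimate stayed below 0 in all 15 alternatives, with adjusted p from 0.0149 to 0.219, and it passed in 5 of them. One of the 5 was DESeq2, which the study's methods name (log2 fold change -0.21, adjusted p = 0.0433). That change is far short of the study's added fold change condition.

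Among the other transcription factors, ATF3 fell, a stress-induced repressor and activator of the same family (chromosome 1, 212565334 to 212620777, plus strand). Its levels were 5.71, 7.43 and 6.26 FPKM in si-SCR and 4.07, 4.02 and 4.42 FPKM in si-CyCoNP, with every si-CyCoNP library below every si-SCR library. The log2 fold change was -0.69 (SE 0.162, adjusted p = 0.00169). DDIT3 encodes CHOP, a factor that ATF4 induces under lasting ER stress and that is linked to cell death. It measured 9.09, 9.76 and 13.12 FPKM in si-SCR and 12.91, 11.16 and 12.36 FPKM in si-CyCoNP. The highest value belonged to a si-SCR library, the groups overlapped, and the log2 fold change was 0.12 (SE 0.190, adjusted p = 0.697). The C/EBP partners CEBPB and CEBPG had log2 fold changes of -0.14 and -0.21 (adjusted p = 0.490 and 0.190). NUPR1, a small stress-induced cofactor, had 1 count in all and was not tested.

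Among the stress effectors CHAC1 and GDF15 fell and TRIB3 rose. CHAC1 degrades glutathione and is a standard readout of ATF4 activity (chromosome 15, 40952962 to 40956512, plus strand). It stood at 10.67, 13.35 and 12.23 FPKM in si-SCR and at 4.98, 5.97 and 6.70 FPKM in si-CyCoNP. Each si-CyCoNP library held less CHAC1 than the lowest si-SCR library, and the log2 fold change was -1.11 (SE 0.178, adjusted p = 2.25e-05). GDF15, a secreted stress hormone (chromosome 19, 18374731 to 18389176, plus strand), went from 2.57, 3.31 and 2.0 FPKM to 0.80, 1.24 and 0.69 FPKM. The groups did not overlap and the log2 fold change was -1.57 (SE 0.392, adjusted p = 0.00314), but this rests on 6 to 26 counts per library. GDF15 reached the expression filter through its si-SCR level alone.

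TRIB3 is a pseudokinase that ATF4 and CHOP induce and that binds ATF4 in turn (chromosome 20, 362835 to 397559, plus strand). Its levels were 3.0, 5.70 and 5.04 FPKM in si-SCR and 7.43, 8.54 and 9.87 FPKM in si-CyCoNP. All si-CyCoNP libraries lay above all si-SCR libraries, with si-SCR replicate 1 the lowest, and the log2 fold change was 0.85 (SE 0.193, adjusted p = 0.00137). Without si-SCR replicate 1 it was 0.63 (adjusted p = 0.00935).
The remaining 3 effectors did not pass. DDIT4, an inhibitor of mTORC1, had a log2 fold change of 0.34 (adjusted p = 0.110) and passed in 5 of 15 alternatives. SESN2, which senses leucine for the same kinase complex, was at 0.20 (adjusted p = 0.387). PPP1R15A, the phosphatase subunit GADD34 that reverses eIF2 phosphorylation, was at -0.03 (adjusted p = 0.892), with a sign that turned in 6 alternatives.

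The enzymes of amino acid synthesis included PSAT1, PHGDH and PSPH, the steps that make serine from a glycolytic intermediate, and SHMT2 and MTHFD2, which pass its carbon into mitochondrial folate metabolism. Of the 5 that were tested, PSAT1 passed. It measured 49.50, 56.27 and 64.45 FPKM in si-SCR and 70.18, 75.52 and 78.83 FPKM in si-CyCoNP (chromosome 9, 78297125 to 78330093, plus strand). The lowest si-CyCoNP library exceeded the highest si-SCR library, and the log2 fold change was 0.33 (SE 0.0931, adjusted p = 0.00792). Without si-CyCoNP replicate 3 the adjusted p was 0.0515 at a log2 fold change of 0.28, the single alternative of 15 in which PSAT1 did not pass. The other steps of the serine pathway had log2 fold changes of 0.08 for PHGDH (adjusted p = 0.577) and -0.32 for PSPH (adjusted p = 0.144). SHMT2 was at -0.22 (adjusted p = 0.122) and MTHFD2 at 0.02 (adjusted p = 0.933), and the signs of PHGDH and MTHFD2 turned when 1 library was left out.

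ASNS, asparagine synthetase and a classic target of the pathway, could not be read from these counts. It was listed at 0.52, 0.92 and 0.68 FPKM in si-SCR and at 0.30, 0.82 and 0.34 FPKM in si-CyCoNP, with 7 to 17 counts, and stayed below the expression filter of 1 FPKM. In the annotation 49.33% of its exon bases are shared with another gene on the same strand, ENSG00000284707, and a fragment that fits both is assigned to neither. With no filter its log2 fold change was -0.60 (SE 0.415, adjusted p = 0.437). The 8 members with annotated pseudogenes named after their symbol (ATF4, ASNS, PSAT1, PSPH, MTHFD2, SLC7A5, XBP1 and HSPA5) may likewise lose fragments that map to several places. Pseudogenes under other names were not searched.

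The amino acid transporters all had estimates above 0, and 2 of the 4 rose. SLC7A11 is the cystine importer of the xCT system, which supplies cysteine for glutathione (chromosome 4, 138164097 to 138242349, minus strand). It was at 3.38, 3.42 and 3.40 FPKM in si-SCR and at 8.94, 8.52 and 8.73 FPKM in si-CyCoNP. Libraries within each group were nearly level and the groups were far apart, with a log2 fold change of 1.29 (SE 0.109, adjusted p = 6.66e-10), a 2.45-fold increase. SLC7A11 and CHAC1, an importer of a glutathione precursor and an enzyme that breaks glutathione down, thus moved in opposite directions.

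SLC7A1, a carrier of arginine and lysine, measured 26.59, 27.56 and 34.32 FPKM in si-SCR and 35.96, 38.57 and 38.90 FPKM in si-CyCoNP. The groups did not overlap, with si-SCR replicate 3 closest to the si-CyCoNP libraries, and the log2 fold change was 0.29 (SE 0.0876, adjusted p = 0.0129). It passed in 10 of 15 alternatives. Leaving out si-SCR replicate 1 or si-CyCoNP replicate 3 gave adjusted p of 0.0546 and 0.0610, and leaving out si-SCR replicate 2 also ended the call. SLC7A5 and its heavy chain SLC3A2, which also pairs with SLC7A11, had log2 fold changes of 0.11 (adjusted p = 0.368) and 0.10 (adjusted p = 0.473).

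**Figure D2:**
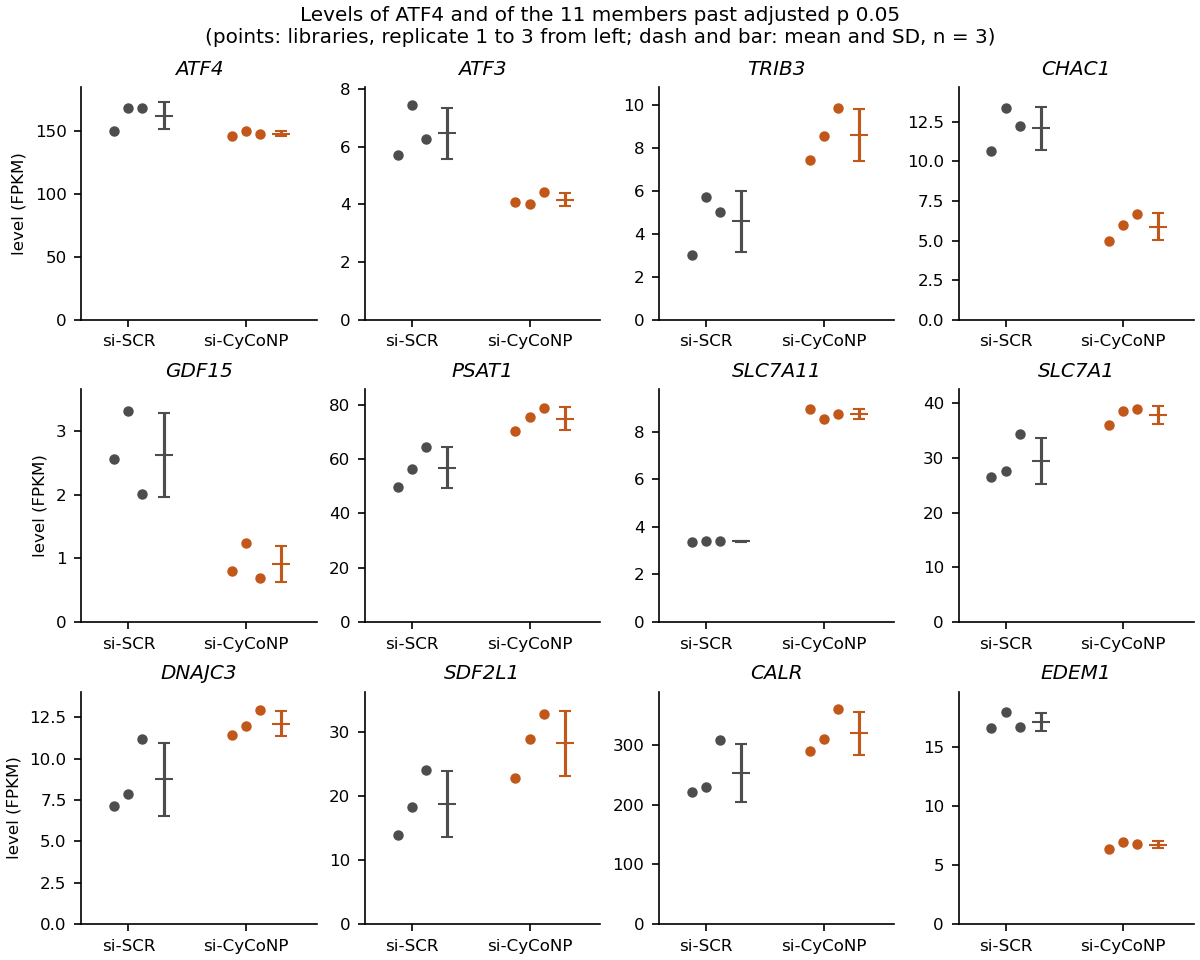
Level in FPKM (linear axis from 0) of ATF4 and of the 11 members past an adjusted p of 0.05 in the 3 si-SCR and 3 si-CyCoNP libraries. Points are libraries, with replicates 1 to 3 from left to right, and dashes with bars give mean and SD (n = 3). The groups are well apart for SLC7A11, EDEM1 and CHAC1. For CALR and SDF2L1 the lowest si-CyCoNP library is below the highest si-SCR library. For ATF4 the highest si-CyCoNP library is just above the lowest si-SCR library.

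The ER folding genes rose by small amounts where they rose, and the largest change was the fall of EDEM1. Promoters of this arm often hold the ER stress element, the site that ATF6 binds with the factor NF-Y, and some hold a UPR element bound by XBP1. The ER stress element was searched as CCAAT, any 9 bases, and CCACG on both strands of the same windows. It was found in 7 of 16 ER folding genes, in 0 of 18 amino acid response genes and in 0.09156% of all genes, which is 25 genes. The UPR element, searched as TGACGTGG, was found in HYOU1 alone among the 16 and in 0.9266% of all genes. The windows of 4 genes are shown so that the shared site can be read beside their values, which all had estimates above 0. The match is in capitals along the strand of the gene and in reverse complement for CALR.
HSPA5, 9:125241385-125241414, minus strand: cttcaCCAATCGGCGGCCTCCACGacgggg
XBP1, 22:28800597-28800626, minus strand: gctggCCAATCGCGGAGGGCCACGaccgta
HSP90B1, 12:103930211-103930240, plus strand: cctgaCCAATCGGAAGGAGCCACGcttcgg
CALR, 19:12938379-12938408, plus strand: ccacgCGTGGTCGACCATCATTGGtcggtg
The other 3 genes with the element were CANX, with an estimate below 0 (-0.06), and CRELD2 and PDIA6, with estimates above 0 (0.28 and 0.03). CALR was the only one of the 7 to pass.

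XBP1 measured 41.29, 50.92 and 59.59 FPKM in si-SCR and 45.97, 62.79 and 70.73 FPKM in si-CyCoNP. The groups overlapped, with a log2 fold change of 0.17 (SE 0.121, adjusted p = 0.321). Gene counts do not separate the spliced XBP1 mRNA, made when IRE1 is active, from the unspliced form. HSPA5 encodes BiP, the Hsp70 chaperone of the ER lumen that also holds the sensors inactive (chromosome 9, 125234853 to 125241382, minus strand). It stood at 143.47, 165.62 and 221.13 FPKM in si-SCR and at 153.20, 206.57 and 250.24 FPKM in si-CyCoNP. The groups overlapped, replicate 3 was the highest in both, and the log2 fold change was 0.14 (SE 0.127, adjusted p = 0.456). The other large chaperones were HSP90B1, the ER form of Hsp90, at 0.15 (adjusted p = 0.284), and HYOU1, an exchange factor of BiP, at 0.20 (adjusted p = 0.0593).

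Of the co-chaperones that work with BiP, SDF2L1 and DNAJC3 rose. SDF2L1 was at 13.85, 18.32 and 24.09 FPKM in si-SCR and at 22.82, 28.89 and 32.80 FPKM in si-CyCoNP. Its lowest si-CyCoNP library lay below its highest si-SCR library, and the log2 fold change was 0.51 (SE 0.176, adjusted p = 0.0308). DNAJC3, a J-domain protein also known as an inhibitor of eIF2 kinases, measured 7.12, 7.89 and 11.22 FPKM in si-SCR and 11.44, 11.96 and 12.94 FPKM in si-CyCoNP. The log2 fold change was 0.40 (SE 0.128, adjusted p = 0.0203), and si-SCR replicate 3 lay close to the si-CyCoNP libraries. MANF, a secreted factor that stabilises BiP complexes, was at 0.26 (adjusted p = 0.127), and DNAJB9, a J-domain protein that represses IRE1, at -0.29 (adjusted p = 0.191).

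None of the 3 members that make or shuffle disulfide bonds passed. CRELD2 had a log2 fold change of 0.28 (adjusted p = 0.181), PDIA6 of 0.03 (adjusted p = 0.815) and PDIA4 of -0.03 (adjusted p = 0.877), and the signs of the last 2 turned with scaling or with a library left out. Of the lectin chaperones, which hold newly made glycoproteins, the soluble CALR rose and its membrane-bound relative CANX did not pass. CALR was at 221.43, 229.09 and 308.68 FPKM in si-SCR and at 289.35, 309.98 and 359.75 FPKM in si-CyCoNP. The groups overlapped through si-SCR replicate 3, with a log2 fold change of 0.27 (SE 0.0976, adjusted p = 0.0368). CANX was at -0.06 (adjusted p = 0.598) and turned above 0 with library totals alone.

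EDEM1 fell more than any other ER folding gene. It encodes a lectin that takes the mannose-trimmed glycoproteins that fail to fold out of the folding cycle and sends them to degradation (chromosome 3, 5187646 to 5219958, plus strand). Its levels were 16.66, 18.03 and 16.70 FPKM in si-SCR and 6.4, 6.95 and 6.84 FPKM in si-CyCoNP. Both groups were tight and did not overlap, and the log2 fold change was -1.41 (SE 0.10, adjusted p = 3.27e-11), a 2.67-fold decrease. Neither of the other degradation genes passed. HERPUD1, a membrane protein of the degradation complex, was at -0.30 (adjusted p = 0.0669) and passed in 5 of 15 alternatives, and SEL1L, the partner of the ubiquitin ligase HRD1, was at 0.10 (adjusted p = 0.520). Of the 11 members that passed, ATF3, TRIB3, CHAC1, GDF15, SLC7A11 and EDEM1 did so in all 15 alternatives.

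The 3 ER folding genes that rose were less steady. SDF2L1 passed in 8 of 15 alternatives, DNAJC3 in 9 and CALR in 7, and none of the 3 passed with DESeq2 or with limma on log2 FPKM, where 4 ER folding genes were higher at an unadjusted p under 0.05. Within each group, the chaperones varied together from library to library. Replicate 3 was the highest library in both groups for 12 of the 16 ER folding genes, for 6 of the 20 amino acid response genes and for 14.4% of all genes tested. As the median over the 16 genes of the log2 difference from the si-SCR mean, si-SCR replicates 1, 2 and 3 lay at -0.157, -0.0266 and 0.226, and si-CyCoNP replicates 1, 2 and 3 at -0.0238, 0.150 and 0.293. The si-SCR replicate 3 thus lay above both the first and the second si-CyCoNP library, while under each replicate number the si-CyCoNP library lay above the si-SCR library. What sets the third libraries apart was not tested.

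**Figure D3:**
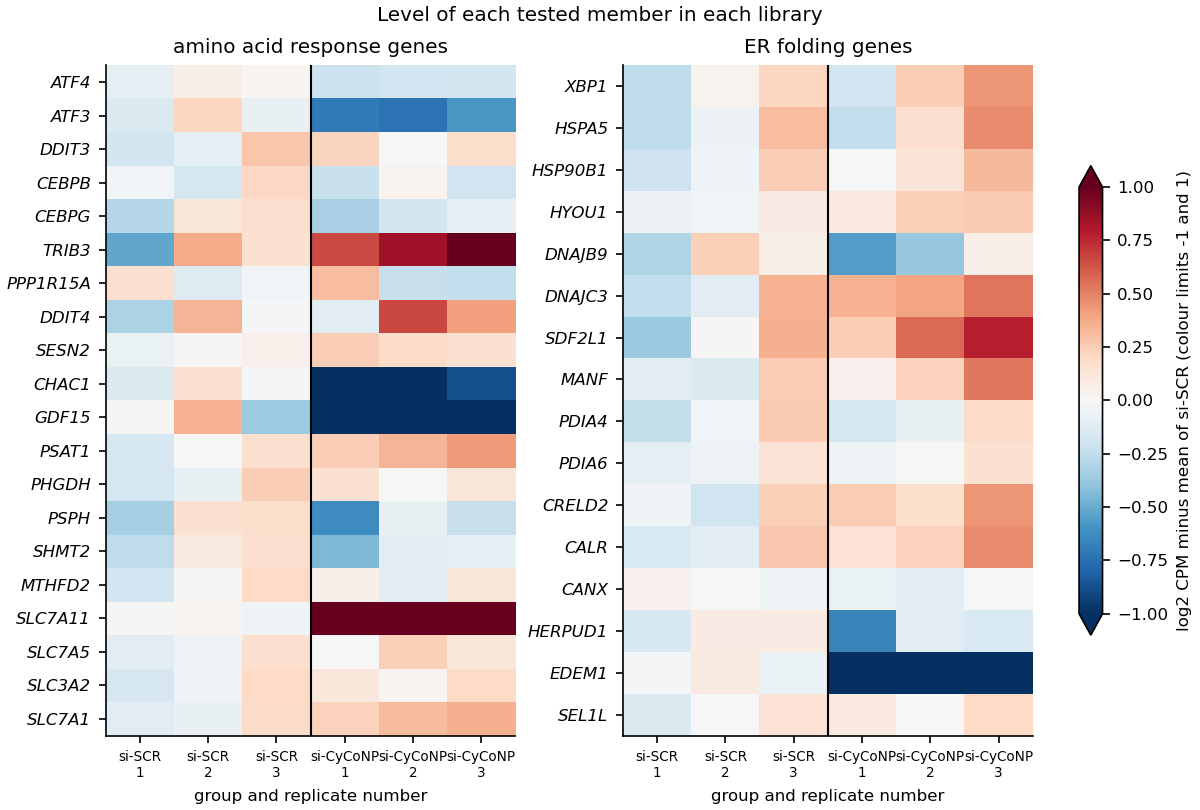
Level of each tested member in each library as log2 CPM (library-scaled counts, normalised for composition) minus the mean of the si-SCR libraries, with colours from blue (lower) to red (higher) and limits at -1 and 1. Columns are the 3 si-SCR and the 3 si-CyCoNP libraries. SLC7A11, TRIB3, CHAC1, GDF15 and EDEM1 change colour at the line between the groups, whereas most ER folding genes are reddest in replicate 3 of each group.

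The number of ER folding genes that rose depended on which libraries were in the fit. The fits that left out a library did not use the replicate number, so each also left the replicate numbers unequal between the groups. With the replicate number as a block and all libraries kept, 5 rose. The block gave more calls in general, with 17 of the 36 tested members of both arms passing against 11 without it. The share of all genes that rose in the block fit is not given here. When the first or the second si-SCR library or the third si-CyCoNP library was left out, 0 rose (edgeR), and 2, 4 and 1 were higher at an unadjusted p under 0.05. In these 3 fits 12.6%, 11.6% and 11.5% of all genes rose. Without si-CyCoNP replicate 2 the number was 1 (DNAJC3), and dropping si-CyCoNP replicate 1 gave 5, with 11.5% of all genes higher in either fit. Leaving out si-SCR replicate 3 gave 9, namely XBP1, HSPA5, HSP90B1, HYOU1, DNAJC3, SDF2L1, MANF, CRELD2 and CALR, with 15.4% of all genes higher. HSPA5 is an example, with a log2 fold change of 0.31 (adjusted p = 0.000475) once si-SCR replicate 3 was dropped and of -0.05 (adjusted p = 0.815) once si-CyCoNP replicate 3 was dropped. EDEM1 stayed between -1.45 and -1.37 in these 6 fits and passed in each. In the amino acid response, 4 genes rose with all libraries, 7 when si-SCR replicate 3 was dropped and 2 when si-CyCoNP replicate 3 was dropped, while 3 fell with all libraries and 7 when si-SCR replicate 1 was dropped, with 12.6% of all genes lower in that fit.

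**Figure D4:**
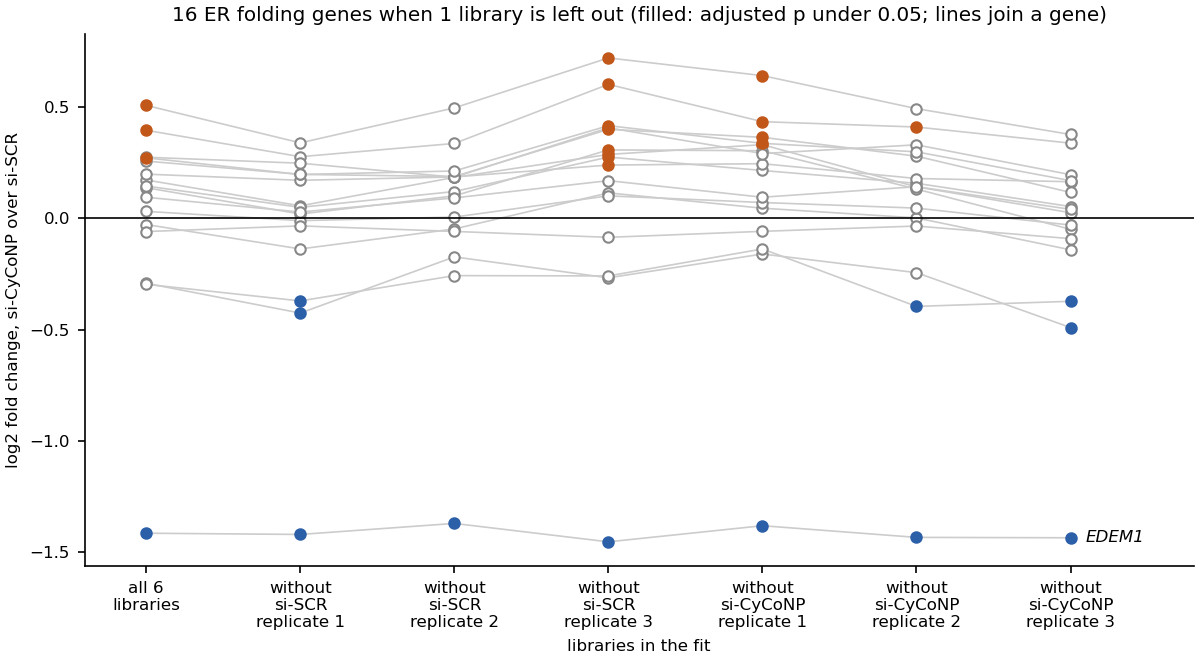
Log2 fold change of the 16 ER folding genes with all 6 libraries and with each library left out in turn. Grey lines join the values of a gene, and filled points passed an adjusted p of 0.05. The number of filled points above 0 runs from 0 to 9, and EDEM1 lies near -1.4 and is filled in every fit.

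The pathway was then followed beyond its members, in 5 further lists of genes, whose counts are to be read against the 14.2% of all genes that rose and the 14.2% that fell. Of 24 tested sensors and transducers of both arms, 3 rose and 6 fell, which is 37.5% against 28.4% of all genes, with a median log2 fold change of -0.06. EIF2AK3, the gene of PERK, fell from 7.39 ± 1.11 to 3.83 ± 0.371 FPKM, a log2 fold change of -1.01 (SE 0.144, adjusted p = 3.83e-06). EIF2S3, a subunit of eIF2, was at -0.44 (adjusted p = 8.73e-05). CREB3L2, an ER-bound transcription factor related to ATF6, rose from 6.30 ± 0.723 to 12.6 ± 0.0562 FPKM (log2 fold change 0.92, adjusted p = 4.88e-08), and EIF2B2, a subunit of the exchange factor that recharges eIF2, was at 0.37 (adjusted p = 0.0172). The gene of IRE1, ERN1, was below the expression filter.

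Among further genes known as ATF4 targets, 15 of 20 were tested, of which 0 rose and 4 fell (edgeR), with a median of -0.06. At an unadjusted p under 0.05, 1 was higher, and DESeq2 also found that 0 rose. The 4 that fell were VLDLR, a lipoprotein receptor, at -1.09 (adjusted p = 2.70e-06), KLHL24 at -0.40 (adjusted p = 0.00843), ALDH1L2 and SLC1A4. The cytosolic tRNA synthetases, which charge tRNAs with amino acids, moved both ways, with 4 of 20 higher and 3 lower and a median of -0.01. KARS1 (log2 fold change 0.53, adjusted p = 5.40e-05) and HARS1 (0.51, adjusted p = 0.000122) rose, and SARS1 (-0.34, adjusted p = 0.00194) and GARS1 (-0.29, adjusted p = 0.00546) fell.

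Of 32 tested genes of ER folding and degradation outside the members, 2 rose and 5 fell, which is 21.9% and below the 28.4% of all genes, with a median of -0.10. GANAB, the catalytic subunit of the glucosidase that trims glycans for the lectin chaperones, rose from 21.2 ± 3.63 to 49.3 ± 1.45 FPKM (log2 fold change 1.15, SE 0.0965, adjusted p = 6.43e-10). P4HB, a disulfide isomerase, was at 0.51 (adjusted p = 5.84e-05). EDEM3, a mannosidase relative of EDEM1, fell as well, from 28.9 ± 3.09 to 19.2 ± 0.900 FPKM (log2 fold change -0.66, adjusted p = 3.40e-06), and HSPA13, an Hsp70 relative at the ER, was at -0.75 (adjusted p = 8.64e-06). The median of this list lay below 0 and that of the ER folding members above it.

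The heat shock genes of the cytosol and mitochondria served as a further comparison, since they respond to unfolded protein outside the ER. Of 13 tested, 4 rose and 2 fell, which is 46.2% against 28.4% of all genes, with a median of 0.21. HSPD1, the mitochondrial chaperonin, had a log2 fold change of 0.70 (adjusted p = 8.98e-06) and DNAJB1, a partner of cytosolic Hsp70, of 0.41 (adjusted p = 0.0261). HSPB1, a small heat shock protein, was at -0.83 (adjusted p = 5.37e-07) and BAG3, a co-chaperone, at -0.49 (adjusted p = 0.00468). Replicate 3 was the highest library in both groups for 10 of these 13 genes, as for most ER folding genes. The number of heat shock genes that rose went to 7 when si-SCR replicate 3 was dropped, to 2 when si-SCR replicate 1 was dropped and to 1 when si-CyCoNP replicate 2 or 3 was dropped. In the same order, 15.4%, 12.6%, 11.5% and 11.5% of all genes rose in these fits.

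**Figure D5:**
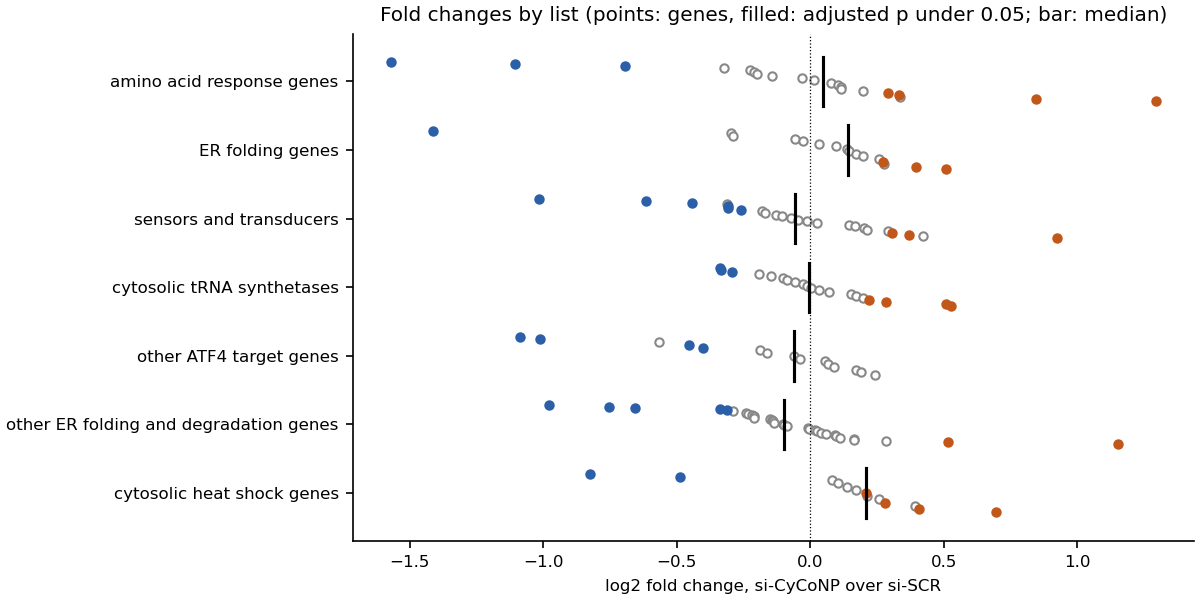
Log2 fold change of the tested genes of both arms and of the 5 further lists. Points are genes, filled where the adjusted p is under 0.05, and bars are medians. Each list spans both sides of 0, and the medians lie between -0.10 and 0.21.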

How the data were processed

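Total RNA was measured in 6 libraries. Per the study's methods, the authors prepared stranded libraries after ribosomal RNA depletion, trimmed paired-end reads (Trimmomatic 0.39, cutadapt 3.2), removed ribosomal reads (Bowtie2 2.4.2) and aligned the rest to GRCh38 (STAR 2.7.7a, gene counting option, uniquely mapped fragments). The deposited tables hold the authors' raw counts per Ensembl gene and their FPKM, which scales counts by gene length and library total without correction for composition. Groups and replicate numbers came from the sample titles.

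The 13966 genes whose mean FPKM reached 1 in si-SCR or in si-CyCoNP were tested. Counts were normalised by TMM and compared by the edgeR 4.0.16 quasi-likelihood method (R 4.3.3), with Benjamini-Hochberg adjustment over all genes tested. "Rose", "fell" and "passed" mean an adjusted p under 0.05. The study's methods name DESeq2 with the same filter, and it was run as an alternative (1.42.0), as were other scalings and filters, the replicate number as a block, limma 3.58.1 on log2(FPKM + 1) and log2(FPKM + 0.1), and leaving out each library. A supplementary legend of the study instead names an edgeR likelihood ratio test for these data, which was not run here. The members and lists were chosen with earlier results of these data known. All 38 members are named, and in each further list the 2 genes with the smallest p that passed in each direction, while the names of ALDH1L2, SLC1A4, ERN1, the markers and gene locations were added after values had been seen. At these totals of deposited counts a gene such as GDF15 has few counts, and the counting error adds to the spread between libraries. Promoter sequences are from RefSeq. One marker of another cell type is not reported here.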

Additional observations from a re-analysis of the deposited data

How the results depend on the processing

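Every member was refitted under 15 alternatives, 540 fits in all. In 457 the direction and the side of the threshold were kept, in 27 a call was lost, in 34 one was gained and in 22 the sign turned, the last in 7 members that did not pass with all libraries. The cause of these changes was not tested. Both arm medians kept their sign, from 0.00990 to 0.163 for the amino acid response and from 0.0336 to 0.258 for ER folding. With library totals alone the median of all genes shifted to 0.0724.

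Leaving out 1 library moved the amino acid response genes that rose between 2 and 7 and those that fell between 3 and 7, and the ER folding genes that rose between 0 and 9 and those that fell between 1 and 3. In the same order (higher, then lower) the ranges were 1 to 3 and 5 to 7 for the sensors, 2 to 5 and 2 to 3 for the tRNA synthetases, 0 to 1 and 2 to 4 for the other ATF4 targets, and 1 to 7 higher for the heat shock genes. Over the fits that left out 1 library, from 11.5% to 15.4% of all genes rose and from 11.5% to 15.8% fell. The shares for the other refits are not given here. With DESeq2, 0 ER folding genes, 1 sensor and 2 heat shock genes rose. With limma on either FPKM scale, 0 ER folding genes and 2 heat shock genes rose, 3 sensors, 1 tRNA synthetase and 1 other ATF4 target fell, and on log2(FPKM + 1) 1 other ATF4 target rose. With library totals alone, 7 heat shock genes and 1 other ATF4 target rose. With no filter, 2 ER folding genes fell. With a log2 fold change beyond 1 in addition, 1 amino acid response gene, 0 ER folding genes, 0 sensors, 0 tRNA synthetases, 1 further ER folding gene and 0 heat shock genes were higher, and 1 sensor, 0 tRNA synthetases, 2 other ATF4 targets, 0 further ER folding genes and 0 heat shock genes were lower.

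Signs turned as follows, with no turned value past the threshold. With library totals alone PPP1R15A was at 0.0355, PDIA4 at 0.0367 and CANX at 0.0095. On log2(FPKM + 1) they were at 0.0112, 0.0491 and 0.0084, and on log2(FPKM + 0.1) at 0.0109, 0.0498 and 0.0085. With 1 library left out, the fold change ran from -0.249 to 0.0598 for PPP1R15A, from -0.0037 to 0.211 for PHGDH, from -0.0733 to 0.125 for MTHFD2, from -0.0488 to 0.308 for HSPA5, from -0.141 to 0.115 for PDIA4 and from -0.0296 to 0.102 for PDIA6, and the upper ends of PHGDH and HSPA5 passed.

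Over all genes tested, libraries of the same replicate number deviated together only weakly (correlations from 0.0727 to 0.108, against -0.0666 to -0.0228 for other pairs). The numbers were therefore not taken to pair the samples, although each library correlated best with its own number. These correlations were not taken over the ER folding genes alone. With the replicate block, 5 amino acid response genes fell, 5 ER folding genes rose (HYOU1 and MANF beside the 3 that rose without it) and 2 fell, 5 sensors rose, 7 heat shock genes rose and 1 other ATF4 target rose. More genes passed with the block in both arms and in every further list, and the share of all genes in that fit is not given here.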
